A study of Mus musculus with 4 samples.

Results

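Tuft-3 is one of the 3 tuft cell subtypes named in the cell annotation that the authors deposited for the injured mouse pancreas, and its working name is the mature tuft subtype. The cells were taken by that deposited label alone. There were 494 of them among 2586 tuft and enteroendocrine cells with a subtype label, 13362 cells with a deposited type and 21140 cells in all. Tuft-2 (457 cells) and Tuft-1 (210 cells) served for comparison. The Tuft-3 cells came from 4 mice, 35 and 181 from the 2-week mice 1 and 2 and 113 and 165 from the 4-week mice 1 and 2. Pairs of values below follow that order.

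The study followed acinar cells, which make the digestive enzymes, through pancreatitis brought on by caerulein, a peptide that overstimulates them. All mice carried Ptf1aCre-ERTM;ROSAYFP/+ on a CD-1 background, were 10 weeks old when injury began, and had received tamoxifen by gavage beforehand, so that Cre driven by the acinar gene Ptf1a switched on the fluorescent protein EYFP. One group of 2 mice had caerulein injections for 2 weeks and the other group of 2 mice for 4 weeks. Live EYFP+ cells were sorted and profiled with 10x Genomics 3' v3.1 chemistry. No uninjured mice are among the samples analysed here, so levels before injury were not analysed here, and the sort was meant to collect cells with the EYFP label.

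Tuft cells are chemosensory epithelial cells with a tuft of long microvilli. They sense luminal or local metabolites through a taste-type cascade in which G proteins and phospholipase C release calcium and open the channel Trpm5, and they signal to immune cells, nerves and neighbouring epithelium with interleukin-25, leukotrienes, prostaglandins and acetylcholine. The normal mouse pancreas has almost none, and they appear when acinar cells undergo metaplasia. Their identity depends on the transcription factor Pou2f3, which binds an octamer motif.

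The cells carried the tuft cell markers. Each of the 494 cells had UMIs of Dclk1, a microtubule-associated kinase, and Avil, the actin-binding protein advillin. All but 3 (491 cells, 99.4%) had UMIs of Trpm5. In Tuft-2 all 457 cells had UMIs of Dclk1 and Avil, and 450 (98.5%) had UMIs of Trpm5. Their presence thus marks tuft cells and does not set Tuft-3 apart from Tuft-2. All 494 Tuft-3 cells had at least 1 UMI of EYFP. The deposited types are titled as YFP+ cells, so this may follow from the labelling. EYFP was at 473 and 503 CPM in the 2-week mice and 499 and 522 CPM in the 4-week mice. CPM is UMIs of the gene scaled to 1000000 UMIs, summed over the cells of a subtype in a mouse. Total UMIs over the Tuft-3 cells were 653810, 3725585, 1608610 and 2656602 in the 4 mice, the median per cell was 17174 (13621 to 21310 by mouse) and mitochondrial UMIs made up 2.76% to 2.89%. The merged table held 67 cell barcodes in more than 1 library, of which 1 belonged to a Tuft-3 cell, and doublets were neither called nor removed here. In 4-week mouse 2 the Tuft-3 cells had no UMI of Xist, which was at 954 to 1065 CPM in the other 3 mice, and that mouse alone had UMIs of the Y-linked Eif2s3y, at 83.2 CPM. The labels give no sex.

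RNA of other cell types was present at levels that differed by cell type. The 7 mast cell genes, which include Cpa3, Mcpt4 and Cma1, were at 0 UMIs in Tuft-3, and the 10 stromal and endothelial genes summed to 1.5 to 7.5 CPM. Summed levels of the 8 macrophage genes were 258, 111, 10.6 and 15.1 CPM, against 18565 CPM in the untyped cells of 2-week mouse 1 that carried at least 3 macrophage UMIs. Pancreatic enzyme genes, 27 in the list, summed to 4277 to 9726 CPM, against 26363 to 198734 CPM in untyped cells marked by T and B cell genes, which make no enzymes of this kind. The latter were shallower, at a median of 3497 UMIs per cell against 17174 in Tuft-3. The same number of enzyme UMIs per cell gives a higher CPM in shallower cells, so these sums do not compare enzyme RNA per cell. Cells outside the acinar lineage were present after the sort. At 3000 UMIs per cell 5.68% of these lymphocyte-marked cells had a UMI of EYFP, against 77.4% of Tuft-3 cells. The lymphocyte-marked cells were taken from cells without a deposited type, and the deposited types are titled as YFP+. The labelling may thus have set this EYFP difference. The part of RNA from other cell types in the differences below was not tested, except where values without cells that held a macrophage or lymphocyte UMI are given.

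Promoter sequences were searched for the octamer that POU factors bind, ATGCAAAT, and its reverse complement, ATTTGCAT, in the window from 250 bases before to 50 bases after each gene's start (RefSeq, GRCm38.p6). The match was found in 532 of 27025 genes (1.97%) and in 86 of 4960 (1.73%) of the genes with a promoter entry that reached 20 CPM in Tuft-3 or Tuft-2. Itpr3, which encodes a receptor that releases calcium ahead of Trpm5, was the only match among 11 taste-type genes at that level. Rgs21, Sucnr1 and Tas2r108 of the same list, at 0 UMIs in Tuft-3, also held a match, as did Jaml. Hpgds and Il4ra matched as well, 1 of 8 eicosanoid enzymes and 1 of 9 receptors. None of 12 immune-type signalling genes, 15 brush border genes or 8 tuft transcription factors held the motif. The windows around the matches of Itpr3 and Nradd are shown, the first because it belongs to the cascade, the second because its level went the other way, each read on the gene's strand with the octamer in capitals.
Itpr3: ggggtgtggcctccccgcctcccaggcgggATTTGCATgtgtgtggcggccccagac
Nradd: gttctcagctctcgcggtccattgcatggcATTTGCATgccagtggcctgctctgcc
The Itpr3 window lies at chr17:27057247-27057303 on the plus strand, with the octamer 27 to 20 bases before the start. The Nradd window lies at chr9:110624569-110624625 on the minus strand, with the octamer 202 to 195 bases before the start. Itpr3 was at 33.6 and 36.5 CPM in the 2-week mice and 30.5 and 38.02 CPM in the 4-week mice in Tuft-3 and 26.1 to 30.9 CPM in Tuft-2, higher in Tuft-3 in all 4 mice, whereas Nradd was at 62.7 and 72.7 CPM in the 2-week mice and 58.4 and 33.5 CPM in the 4-week mice in Tuft-3 and 73.4 to 107 CPM in Tuft-2, lower in all 4. A match describes letters only and was not tied to binding.

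A small set of genes was present in Tuft-3 at levels far above Tuft-2. Bglap3, an osteocalcin family gene, stood at 409.9 and 1474 CPM in the 2-week mice and 1448 and 933 CPM in the 4-week mice, against 14.6 to 36.4 CPM in Tuft-2. In 2-week mouse 1, 1 of 35 Tuft-3 cells held 48.5% of the Bglap3 UMIs. Pate4, a small secreted protein of the Ly6 and uPAR family, was at 1201 and 661 CPM in the 2-week mice and 1441 and 1322 CPM in the 4-week mice, against 29.7 to 131 CPM. Folr1, the folate receptor alpha, was at 414 and 428 CPM in the 2-week mice and 723 and 937 CPM in the 4-week mice, against 29.1 to 99.1 CPM. For each of these genes the lowest Tuft-3 value lay above the highest Tuft-2 value. The within-mouse differences, Tuft-3 minus Tuft-2 on a log2 scale with 1 CPM added, were 5.02 ± 0.35 (SD, n = 4) for Bglap3, 3.68 ± 0.50 for Pate4 and 3.22 ± 0.41 for Folr1. The sources used here do not say how the authors assigned the subtypes, and the labels may rest on the same counts, so such differences are given as a description without a test. Reads of Bglap3 may be shared with its close copies Bglap and Bglap2, so its level is uncertain.

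Among 6172 genes at 20 CPM or more, 1467 (23.8%) were higher in Tuft-3 in 4 of 4 mice and 1238 (20.1%) were lower. A mean difference of at least 1 on the log2 scale as well was seen for 154 (2.5%) and 61 (0.988%), and for 272 and 127 with cells thinned to 3000 UMIs. Thinning left 35 Tuft-3 and 33 Tuft-2 cells of 3000 UMIs each in 2-week mouse 1. A difference of few UMIs there gives a large log2 difference, so the larger counts are not read as more differences. The median over the 6172 genes was 0.03. These counts form the background for every gene group below. They count direction within mice. The 20 CPM had to be reached only by the mean of the higher subtype, here and in the lists below. Chat, Ptgs2, Ffar3 and Myo7b, for example, entered through Tuft-3 alone, so the shares of genes higher or lower are in part set by this filter. How many of all genes had no overlap of ranges between the subtypes was not counted, so a lack of overlap only describes the gene named.

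**Figure D1:**
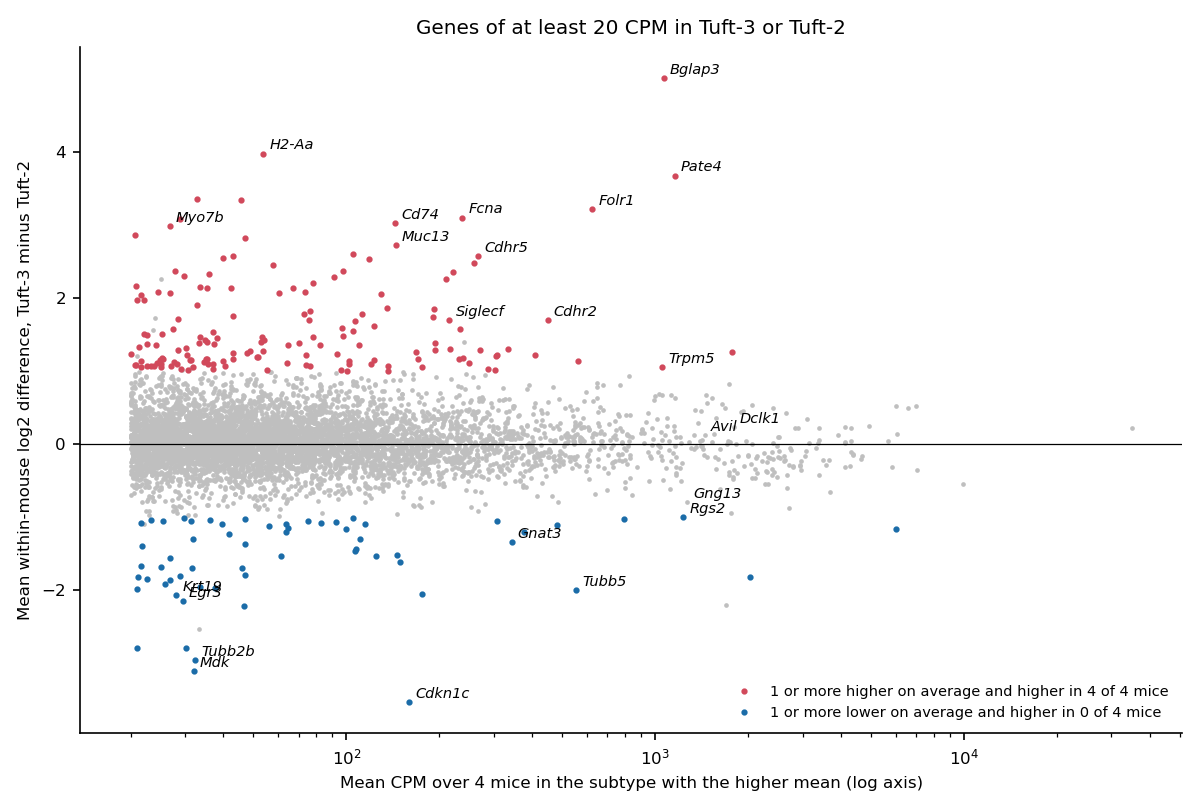
Each point is 1 of 6172 genes. The horizontal axis is the mean CPM over 4 mice in the subtype where it was higher (log axis) and the vertical axis is the mean within-mouse log2 difference of Tuft-3 over Tuft-2. Red points were higher by 1 or more on average and higher in 4 of 4 mice. Blue points were lower by 1 or more on average and higher in 0 of 4 mice. Bglap3 lies highest, at 5.02, and Cdkn1c lowest, at -3.53, while Dclk1 and Avil lie near 0.

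Fcna, Muc13 and Sct were among the other genes higher in Tuft-3. Fcna, a ficolin that binds sugars on microbes, was at 128 and 319 CPM in the 2-week mice and 234 and 267 CPM in the 4-week mice in Tuft-3 and 22.8 to 28.98 CPM in Tuft-2. Muc13, a membrane-bound mucin, was at 171 and 146 CPM in the 2-week mice and 86.4 and 173 CPM in the 4-week mice and 16.05 to 26.2 CPM. Sct, which encodes the hormone secretin, was at 128 and 193 CPM in the 2-week mice and 198 and 251 CPM in the 4-week mice and 41.3 to 60.1 CPM. All 3 had no overlap between the subtypes. When Tuft-3 was set against every other deposited type and subtype, the 10 genes that stood highest were Bglap3, Clec4a1, Pate4, Fcna, Folr1, Muc13, Cdhr5, 1700016C15Rik, Slfn5 and Bst1. In all 10 the next set was Tuft-2, with means of 1066 against 30.2 CPM for Bglap3 and 21.6 against 3.25 CPM for Bst1. Untyped macrophage-marked cells, which were not among the sets compared, had more Clec4a1 and Slfn5 than Tuft-3, with means of 118 CPM and 174 CPM, and lymphocyte-marked cells had more Slfn5, with a mean of 52.6 CPM against 39.96 CPM in Tuft-3.

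**Figure D2:**
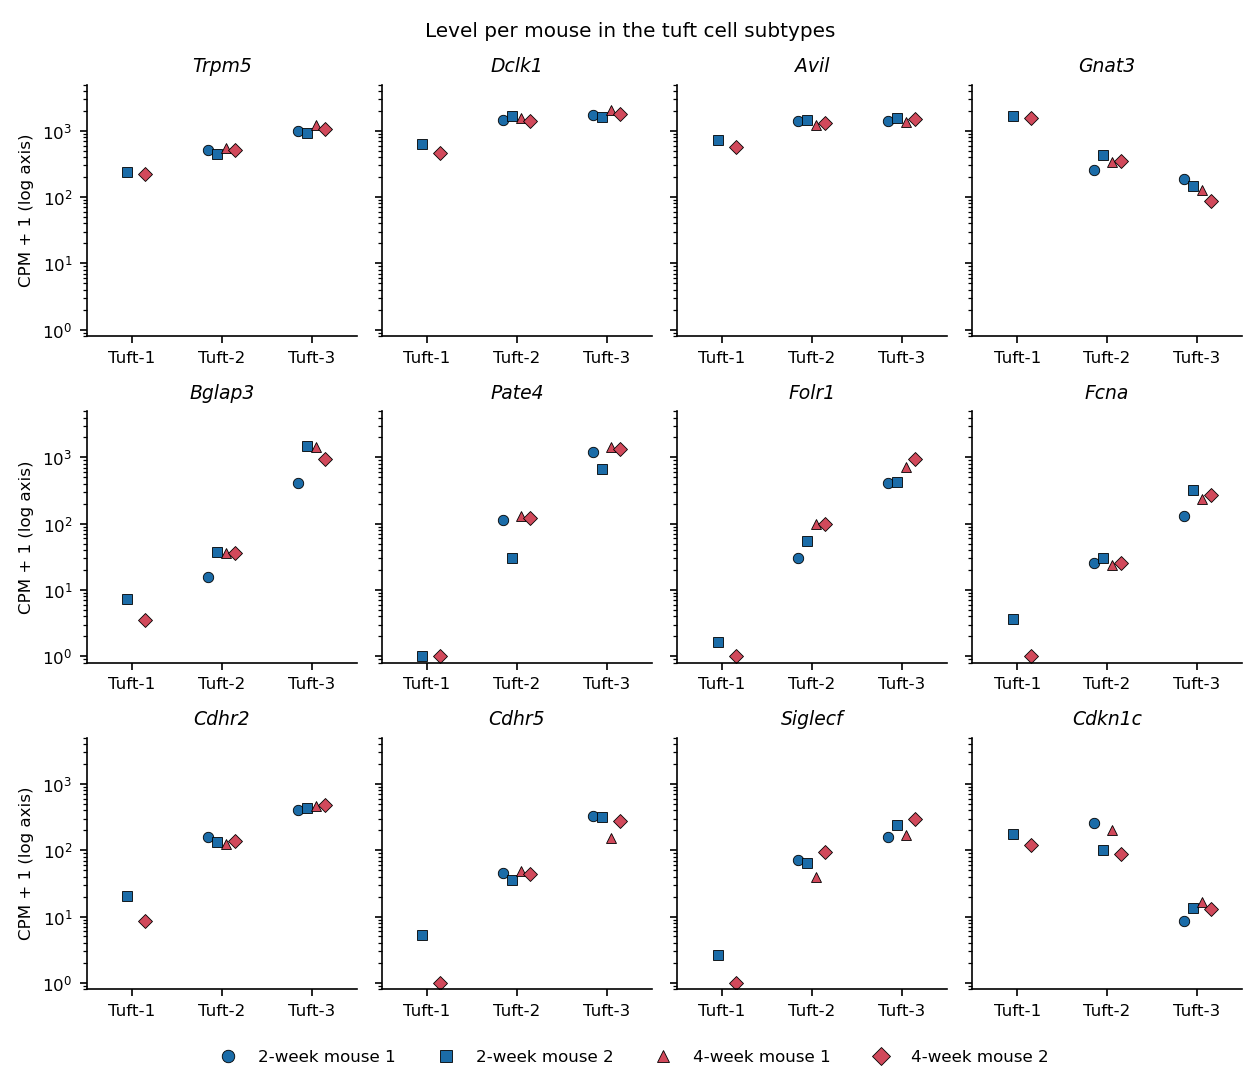
Level of 12 genes in the tuft subtypes, as CPM + 1 on a log axis, 1 point per mouse (blue at 2 weeks, red at 4 weeks). Tuft-1 is plotted only for 2-week mouse 2 and 4-week mouse 2. From Tuft-1 over Tuft-2 to Tuft-3, Trpm5, Pate4, Folr1 and Cdhr2 step up, while Gnat3 steps down from 1654 and 1585 CPM to 188 CPM or less.

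The taste-type cascade did not move as 1 block. Trpm5, the calcium-gated cation channel at its end, was at 999 and 941 CPM in the 2-week mice and 1215 and 1053 CPM in the 4-week mice in Tuft-3, against 439.7 to 553 CPM in Tuft-2 and 241 and 223 CPM in the Tuft-1 cells of 2-week mouse 2 and 4-week mouse 2, the only mice with 20 or more of them, a within-mouse difference from Tuft-2 of 1.06 ± 0.07 (SD, n = 4). Gnat3, the G protein subunit gustducin at its top, was at 188 and 148 CPM in the 2-week mice and 129 and 86.6 CPM in the 4-week mice, against 255 to 434 CPM in Tuft-2 and 1654 and 1585 CPM in Tuft-1. The channel was highest and the G protein lowest in Tuft-3, without overlap in either case. Of 22 genes in the list 11 reached 20 CPM. Of these, 5 were higher in 4 of 4 mice (45.5%, against 23.8% of all genes) and 2 were lower (18.2%, against 20.1%). The median difference was 0.04.

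The calcium-releasing receptors Itpr2 and Itpr3 were both higher, by 0.30 ± 0.12 and 0.28 ± 0.09. Ffar3, a receptor for short-chain fatty acids, was at 16.8 and 33.8 CPM in the 2-week mice and 9.95 and 37.3 CPM in the 4-week mice in Tuft-3 and 2.18 to 9.17 CPM in Tuft-2. Rgs2, which shortens G protein signals, was lower at 535 and 655 CPM in the 2-week mice and 665 and 605 CPM in the 4-week mice, against 1086 to 1400.3 CPM, while its relative Rgs13 was at 3513 to 4433 CPM in Tuft-3 and 3293 to 4666 CPM in Tuft-2, with an overlap. Plcb2, the phospholipase of taste cells, was at 58.7 to 94.8 CPM in Tuft-3 and 69.7 to 94.6 CPM in Tuft-2 and overlapped. The receptor end of the cascade was at 0 UMIs in all Tuft-3 cells for Tas1r1, Tas1r2, 4 bitter receptors (Tas2r108, Tas2r131, Tas2r138 and Tas2r143) and the succinate receptor Sucnr1. Over the 8644607 UMIs of Tuft-3, a count of 0 allows a level of up to 0.347 CPM (3 counts, counting error only).

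Of 16 eicosanoid genes 9 reached 20 CPM, and 8 of these had the same direction in every mouse. Ltc4s, the enzyme that makes leukotriene C4, was at 2631 and 2828 CPM in the 2-week mice and 2658 and 3220.3 CPM in the 4-week mice, against 2243 to 2792 CPM in Tuft-2 and 1829 and 1475 CPM in Tuft-1. Alox5ap, which presents arachidonic acid to 5-lipoxygenase, was at 3489 and 3395 CPM in the 2-week mice and 3114 and 3563 CPM in the 4-week mice, against 2653 to 3197 CPM and 1494 and 1088 CPM. Both were higher in Tuft-3 than in Tuft-2 within every mouse, by 0.22 ± 0.08 (SD, n = 4) and 0.22 ± 0.10, although both ranges overlapped. Hpgds, which makes prostaglandin D2, was at 307 and 344 CPM in the 2-week mice and 309 and 350.4 CPM in the 4-week mice, against 198 to 282 CPM, and the inducible cyclooxygenase Ptgs2 was at 22.6 to 26.7 CPM, against 2.29 to 14.8 CPM. Of the 9 genes, 6 were higher in 4 of 4 mice (66.7%, against 23.8% of all genes) and 2 lower (22.2%, against 20.1%), with a median of 0.22. Ptgs2 differed by 1.51 ± 0.94. The 2 lower ones were Pla2g4a, the phospholipase A2 that frees arachidonic acid (-0.28 ± 0.18), and Ptges3 (-0.47 ± 0.07).

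Transmitter and cytokine genes were uneven. Wnt5a, a non-canonical Wnt ligand, was at 45.9 and 68.2 CPM in the 2-week mice and 102 and 76.8 CPM in the 4-week mice in Tuft-3 and 8.73 to 21.8 CPM in Tuft-2, a difference of 2.08 ± 0.20 (SD, n = 4). Chat, which makes acetylcholine, was at 19.9 and 34.9 CPM in the 2-week mice and 25.5 and 44.04 CPM in the 4-week mice, against 8.60 to 19.4 CPM, and higher in every mouse although the ranges lay close. Nrgn, neurogranin, a calmodulin-binding protein of neurons, was at 887 and 1187 CPM in the 2-week mice and 1577 and 2195 CPM in the 4-week mice, against 738 to 1158 CPM in Tuft-2 and 36.2 and 23.05 CPM in Tuft-1. The cytokine Il25, the tuft cell signal to innate lymphoid cells, was at 132 and 196 CPM in the 2-week mice and 160.4 and 249 CPM in the 4-week mice, against 88.8 to 201 CPM. It was higher in Tuft-3 in 4 of 4 mice, by 0.33 ± 0.24 (SD, n = 4), but its ranges overlapped. Of 20 genes in the list 6 reached 20 CPM, with a median of 0.50. In 4 of 4 mice 4 were higher (66.7%, against 23.8% of all genes) and 2 lower (33.3%, against 20.1%). Chat entered this count through its Tuft-3 level alone. The choline transporter Slc5a7, the acetylcholine vesicle transporter Slc18a3 and the histamine-making enzyme Hdc were at 0 UMIs.

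Surface receptors included some of the clearest steps. Siglecf, a sialic acid receptor of eosinophils and tuft cells, was at 158 and 239 CPM in the 2-week mice and 171 and 294 CPM in the 4-week mice in Tuft-3, 38.1 to 93.4 CPM in Tuft-2 and 1.64 and 0 CPM in Tuft-1. Cd300lf, a lipid-binding receptor, was at 209.5 and 202 CPM in the 2-week mice and 216 and 236 CPM in the 4-week mice, against 79.6 to 105 CPM, and varied little between mice. Ptprc, the pan-leukocyte phosphatase CD45, was at 38.2 and 81.6 CPM in the 2-week mice and 85.2 and 123 CPM in the 4-week mice, against 18.9 to 45.8 CPM. The differences were 1.70 ± 0.43 (SD, n = 4) for Siglecf, 1.31 ± 0.10 for Cd300lf and 1.36 ± 0.26 for Ptprc, and the first and second had no overlap between subtypes. Lgr5, an R-spondin receptor that marks intestinal stem cells, was at 93.3 and 100.4 CPM in the 2-week mice and 91.4 and 44.04 CPM in the 4-week mice, against 28.1 to 68.5 CPM, higher in every mouse. The type 2 cytokine receptors Il4ra (0.10 ± 0.28) and Il13ra1 (-0.29 ± 0.24) were not higher in all mice, and Il17rb, the interleukin-25 receptor, was (0.34 ± 0.19). Of 12 genes at 20 CPM, 6 were higher in 4 of 4 mice (50%, against 23.8% of all genes) and 0 lower (against 20.1%). Their median was 0.22.

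Signalling genes better known from blood cells were mostly higher in Tuft-3. Of 16 at 20 CPM, 10 were higher in 4 of 4 mice (62.5%, against 23.8% of all genes) and 0 lower, with a median of 0.32. Without the Tuft-3 and Tuft-2 cells that held a macrophage or lymphocyte UMI, 11 of the 16 were higher in 4 of 4 mice and 0 lower, with a median of 0.31. The 8 macrophage genes summed to 258, 111, 10.6 and 15.1 CPM in Tuft-3 and 5.82, 51.8, 7.61 and 10.3 CPM in Tuft-2 of the 4 mice, and the 8 T and B cell genes to 26.0 to 42.9 CPM and 12.0 to 21.2 CPM, both higher in Tuft-3 in 4 of 4 mice. Rac2, a small GTPase of blood cells, was at 375 and 496 CPM in the 2-week mice and 308 and 387 CPM in the 4-week mice, against 158 to 310.0 CPM in Tuft-2 and 27.3 and 0 CPM in Tuft-1. Matk, a kinase that restrains Src family kinases, was at 222 and 513 CPM in the 2-week mice and 220.1 and 268 CPM in the 4-week mice, against 94.6 to 207 CPM. The Src family kinase Lyn was at 143 to 186 CPM, against 106 to 126 CPM, with no overlap. The adaptor genes Sh2d7 (0.53 ± 0.18) and Dok2 (0.54 ± 0.36) and the tetraspanin Tspan6 (0.59 ± 0.17) were higher in 4 of 4 mice. Untyped lymphocyte-marked cells had more Rac2 and Ptprc than Tuft-3, with means of 679 and 533 CPM, but Matk at 10.4 CPM and Sh2d7 at 2.80 CPM. Over all genes without those cells, 160 were higher by 1 or more and 67 lower, against 154 and 61 with them.

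Brush border genes went both ways between the subtypes. Cdhr2 and Cdhr5, protocadherins that tie the tips of neighbouring microvilli together, were at 408 and 441 CPM in the 2-week mice and 464 and 479 CPM in the 4-week mice and at 326 and 317 CPM in the 2-week mice and 149.8 and 273 CPM in the 4-week mice. In Tuft-2 they were at 123 to 157 CPM and 34.2 to 47.9 CPM, and in Tuft-1 at 19.1 and 7.68 CPM and 4.28 and 0 CPM, so no range overlapped. The differences from Tuft-2 were 1.70 ± 0.23 (SD, n = 4) and 2.58 ± 0.67. Myo7b, the motor that carries this tip complex, was at 30.6 and 31.4 CPM in the 2-week mice and 29.2 and 15.8 CPM in the 4-week mice, against 1.15 to 3.26 CPM, and its light chain Calml4 was at 1358 and 1306 CPM in the 2-week mice and 884 and 946 CPM in the 4-week mice, against 547 to 901 CPM. The scaffold Anks4b was higher by 0.41 ± 0.13. All 5 genes of the 6-gene tip-link list that reached 20 CPM were higher in 4 of 4 mice, with a median of 1.70. That list was drawn up after Cdhr2 and Cdhr5 had been seen and is no independent evidence.

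The 3 core bundle genes of the microvillus whose levels are given here were present in both subtypes. Avil was at 1404 and 1566 CPM in the 2-week mice and 1339.7 and 1485 CPM in the 4-week mice in Tuft-3 and 1205 to 1444 CPM in Tuft-2, villin (Vil1) at 226 to 318 CPM and 240.1 to 294 CPM, and the bundler Espn at 1041 to 1123 CPM and 793 to 963 CPM. Of these, only Espn was free of overlap. Pls1 and Ezr, also in the list, had smaller shares of cells with a UMI in Tuft-3 than in Tuft-2. At 3000 UMIs per cell the shares were 6.71% against 8.32% for Pls1 and 24.2% against 32.4% for Ezr. Myo1a, the membrane-linking motor of the brush border, was at 119 and 199.7 CPM in the 2-week mice and 83.9 and 88.1 CPM in the 4-week mice, against 30.5 to 95.2 CPM, higher in every mouse. Dclk1, the usual tuft marker, was at 1708 and 1617 CPM in the 2-week mice and 2042 and 1813 CPM in the 4-week mice, against 1395 to 1665 CPM in Tuft-2 and 637 and 456 CPM in Tuft-1, and was higher than in Tuft-2 in 3 of 4 mice. Keratins and tubulins went the other way. Tubb5 was at 154 and 172 CPM in the 2-week mice and 123 and 109.9 CPM in the 4-week mice, against 471 to 592 CPM in Tuft-2 and 1091 and 1111 CPM in Tuft-1, a difference from Tuft-2 of -1.997 ± 0.19 (SD, n = 4). Krt18 (-0.54 ± 0.17), Krt8 (-0.35 ± 0.09) and Tuba1a (-0.61 ± 0.11) were also lower in 4 of 4 mice. Of 17 genes at 20 CPM, 7 were higher in 4 of 4 mice (41.2%, against 23.8% of all genes) and 6 lower (35.3%, against 20.1%). Their median was 0.08.

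Most tuft transcription factors had no shared direction between the subtypes over the 4 mice. Pou2f3 was at 242 and 232 CPM in the 2-week mice and 208 and 198 CPM in the 4-week mice in Tuft-3, 214 to 241 CPM in Tuft-2 and 208 and 195 CPM in Tuft-1. Gfi1b and Spib, both blood cell factors also found in tuft cells, were at 48.05 to 68.1 CPM and 452 to 552 CPM, against 46.6 to 56.6 CPM and 461 to 477 CPM in Tuft-2. All 14 genes of the list reached 20 CPM and 0 were higher in CPM in 4 of 4 mice (against 23.8% of all genes). Foxe1, a forkhead factor, was at 16.8 and 13.2 CPM in the 2-week mice and 33.6 and 62.1 CPM in the 4-week mice in Tuft-3 and 4.68 to 22.8 CPM in Tuft-2, higher in 3 of 4 mice. At 3000 UMIs per cell a UMI of it was found in 8.94% of Tuft-3 and 1.31% of Tuft-2 cells, with the larger share in Tuft-3 in 4 of 4 mice, and at 5000 UMIs in 14.96% and 3.96%, with the larger share in Tuft-3 in 3 of 4 mice (12.6% against 12.7% in 4-week mouse 1). Lower in 4 of 4 mice were 3 of the 14 (21.4%, against 20.1% of all genes). They were Sox4, a factor of immature cells (-0.59 ± 0.31), Myb (-0.53 ± 0.34) and Tcf4 (-0.20 ± 0.18). Sox4 was at 321 and 297 CPM in the 2-week mice and 237 and 176 CPM in the 4-week mice in Tuft-3, 303 to 451 CPM in Tuft-2 and 1984 and 1181 CPM in Tuft-1. The list's median was 0.04.

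Genes lowest in Tuft-3 against Tuft-2 were led by Cdkn1c, the cell cycle inhibitor p57. It was at 7.65 and 12.3 CPM in the 2-week mice and 15.5 and 12.05 CPM in the 4-week mice, against 87.7 to 253 CPM in Tuft-2 and 177 and 120.4 CPM in Tuft-1, a difference of -3.53 ± 0.96 (SD, n = 4). The duct keratin Krt19 was at 4.59 and 10.5 CPM in the 2-week mice and 4.97 and 4.14 CPM in the 4-week mice, against 20.4 to 43.02 CPM, and the tubulin Tubb2b at 1.53 and 6.44 CPM in the 2-week mice and 3.73 and 1.51 CPM in the 4-week mice, against 14.3 to 50.04 CPM. Mdk, a growth factor, was at 0 and 2.42 CPM in the 2-week mice and 13.7 and 1.13 CPM in the 4-week mice, against 12.03 to 66.4 CPM. Cdkn1c, Krt19 and Tubb2b did not overlap between the subtypes. The highest Tuft-3 value of Mdk, in 4-week mouse 1, passed its lowest Tuft-2 value, in 4-week mouse 2. Immediate early genes, which rise on cell dissociation and stress, were at a median of -0.45. Of 13, 1 was higher in 4 of 4 mice (7.69%, against 23.8% of all genes) and 6 lower (46.2%, against 20.1%). Fos was at 176 and 229.8 CPM in the 2-week mice and 95.1 and 171 CPM in the 4-week mice, against 306 to 501 CPM, and Ier2 at 319 to 499 CPM, against 584 to 887 CPM.

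Interferon-response and antigen-presentation genes were mostly higher in Tuft-3 than in Tuft-2, and they varied between mice. Of 16 at 20 CPM, 10 were higher in 4 of 4 mice (62.5%, against 23.8% of all genes) and 0 lower (against 20.1%), with a median of 0.58. The 10 include 3 MHC class II genes (Cd74, H2-Aa and H2-Ab1). Of the 12 genes outside class II, 7 were higher in 4 of 4 mice and 0 lower, with a median of 0.46, and 7 also without the cells that held a macrophage or lymphocyte UMI. Without those cells 0 of 4 class II genes were higher in 4 of 4 mice. B2m, the light chain of MHC class I, was at 413 and 220.1 CPM in the 2-week mice and 270.4 and 330.5 CPM in the 4-week mice, against 86.8 to 186 CPM, and Irf7, a regulator of interferon genes, was at 459 and 114 CPM in the 2-week mice and 154 and 201 CPM in the 4-week mice, against 46.98 to 169 CPM. Isg15, an interferon-induced ubiquitin-like protein, was at 309 and 9.39 CPM in the 2-week mice and 33.6 and 24.8 CPM in the 4-week mice in Tuft-3 and 71.3 and 7.38 CPM at 2 weeks and 26.1 and 25.8 CPM at 4 weeks in Tuft-2. In each subtype 2-week mouse 1 was the highest for Isg15, Irf7 and Bst2, so the 2-week mice lay far from each other. Without 2-week mouse 1, 172 genes were higher by 1 or more and 63 lower.

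MHC class II genes rested on very few cells. Cd74, the class II invariant chain, was at 283 and 79.2 CPM in the 2-week mice and 8.70 and 203 CPM in the 4-week mice in Tuft-3, against 5.82 to 19.6 CPM in Tuft-2, and H2-Aa was at 119 and 24.4 CPM in the 2-week mice and 6.22 and 65.1 CPM in the 4-week mice, against 0 to 5.04 CPM. The cell with the most UMIs, in 4-week mouse 2 for either gene, held 45.3% of all Cd74 UMIs of Tuft-3 and 42.9% of those of H2-Aa. After thinning, 2.8% of Tuft-3 cells had a UMI of H2-Aa and 3.0% of Cd74, against 10.9% for Cd74 in MucinDuctal cells and 53.4% in lymphocyte-marked cells. Without the cells that held a macrophage or lymphocyte UMI, the difference from Tuft-2 went from 3.03 ± 2.28 to 0.44 for Cd74 and from 3.98 ± 2.12 to 1.63 for H2-Aa. For Bglap3, Pate4 and Fcna the same step gave 5.38, 3.84 and 3.32, as large as with all cells.

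**Figure D3:**
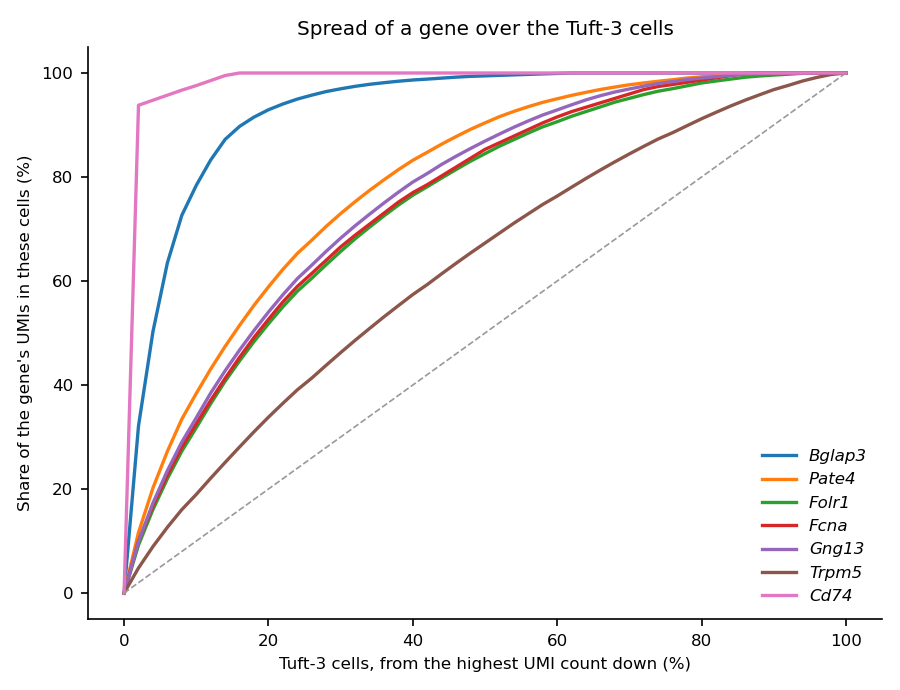
Share of a gene's UMIs (vertical axis, %) held by the Tuft-3 cells with the most of them (horizontal axis, % of the 494 cells), for 7 genes. The dashed line stands for equal shares. Trpm5 runs closest to it, Bglap3 bends far above, and the curve of Cd74 rises at once, as 1 cell holds 45.3% of its UMIs.

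Bglap3 and Pate4, with like mean levels, were spread differently over the cells. For Bglap3, 61.7% of Tuft-3 cells had at least 1 UMI, with a median of 1 and a maximum of 621 UMIs in 1 cell. The 10% of cells with the most held 78.9% of its UMIs over all mice, and 81.7%, 80.0%, 73.6% and 77.9% in the 4 mice taken singly. In Pate4 such cells held 38.9%, in Folr1 32.3% and in Fcna 33.0%, while in Trpm5 it was 19.3%. Bglap3 was concentrated in a minority of Tuft-3 cells in every mouse, while a UMI of Pate4, Folr1 or Fcna was found in 90.1%, 94.5% and 86.4% of the cells.

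Because depth differed between mice and subtypes, each cell was thinned once to 3000 UMIs, which 492 of 494 Tuft-3 cells, all 457 Tuft-2 cells and all 210 Tuft-1 cells reached. A UMI of Trpm5 was then found in 94.1% of Tuft-3 cells (95% Clopper-Pearson interval 91.6% to 96.0%), 73.5% of Tuft-2 cells and 51.4% of Tuft-1 cells. Pate4 was found in 69.5%, 13.8% and 0%, and Folr1 in 68.1%, 14.7% and 0%. In lymphocyte-marked cells, which should lack these genes, the shares were 0.604% for Trpm5 and Pate4 and 0.362% for Folr1 at the same depth. Their median before thinning was 3497 UMIs, so only 828 of 1241 such cells could be thinned. The shares in Tuft-2 were thus also above this background.

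Genes that go down along the subtypes gave the mirror image. Gnat3 was found in 24.4% of Tuft-3, 58.9% of Tuft-2 and 94.3% of Tuft-1 cells, and Tubb5 in 32.5%, 77.5% and 90.5%. Dclk1 (97.8% and 97.6%) and Avil (99.2% and 98.2%) were found in nearly all cells of Tuft-3 and Tuft-2. Il25 was found in 28.3% of Tuft-3 and 28.0% of Tuft-2 cells, with the larger share in Tuft-3 in 1 of 4 mice, although its CPM was higher in 4 of 4. Of 128 genes examined this way, 47 had the larger share in Tuft-3 in 4 of 4 mice (36.7%, against 13.2% of the 6172 genes) and 19 the smaller (14.8%, against 10.8%). The 128 include genes picked for their difference between the subtypes, so nothing is read from these counts.

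**Figure D4:**
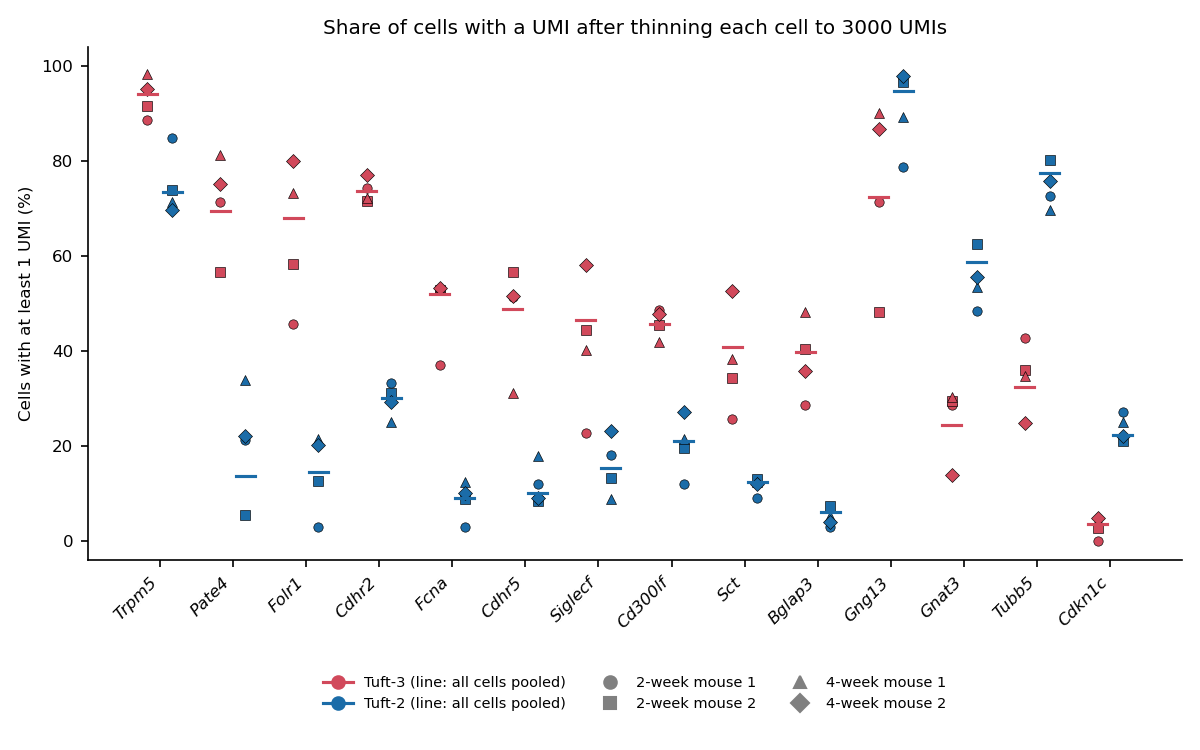
Share of cells with at least 1 UMI (vertical axis, %) of 14 genes after thinning to 3000 UMIs per cell, Tuft-3 in red and Tuft-2 in blue. Each point is a mouse and the line is the share over all cells. Within each mouse the Tuft-3 point lies above the Tuft-2 point from Trpm5 to Bglap3 and below it for Gnat3, Tubb5 and Cdkn1c, while the Gng13 points of Tuft-3 run from 48.3% to 90.2%.

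The question of what changed in Tuft-3 between 2 and 4 weeks of injury was put to all genes at once, with the 2 mice of each time point as replicates. The labels name separate mice, and p-values rest on 2 against 2. Of 9648 genes tested, 11 (0.114%) passed an adjusted p of 0.05 with edgeR's quasi-likelihood test, 5 higher (0.0518%) and 6 lower (0.0622%) at 4 weeks. At an unadjusted p under 0.05 there were 655. DESeq2 called 14 of 16180 (0.0865%), 10 of them among the same 11. By ranges alone, the time points did not overlap for 1903 genes (19.7%) that were higher and 1576 (16.3%) that were lower at 4 weeks. All 11 genes called had no overlap between the time points.

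Gng13, the gamma subunit that works beside gustducin in the taste cascade, was the member of that cascade that rose. It was at 473 and 313 CPM in the 2-week mice and 1347 and 1413 CPM in the 4-week mice in Tuft-3, a change of 1.82 on the log2 scale (SE 0.19, edgeR adjusted p = 0.00586). In Tuft-2 it was at 1122 and 1250.3 CPM in the 2-week mice and 1244 and 1446 CPM in the 4-week mice, so the low values were those of Tuft-3 at 2 weeks. The change over time in Tuft-3 exceeded that in Tuft-2 by 1.69 (SE 0.20, edgeR adjusted p = 0.0161). Without TMM scaling that difference had an edgeR adjusted p of 0.149. The median cell of Tuft-3 had 6 and 4 Gng13 UMIs at 2 weeks and 15 and 18 at 4 weeks, against 19, 24, 18 and 22 in Tuft-2. At 3000 UMIs per cell 71.4% and 48.3% of Tuft-3 cells had a UMI at 2 weeks and 90.2% and 86.7% at 4 weeks. None of the other 11 taste-type genes tested passed over time, among them Trpm5 (adjusted p = 0.865, edgeR) and Gnat3 (adjusted p = 0.477, edgeR).

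The other genes that rose were Pcdh20, Clec4a1, Gm5662 and Tm4sf4. Pcdh20, a protocadherin of nerve cells, was at 29.1 and 12.6 CPM at 2 weeks and 125 and 115 CPM at 4 weeks, a change of 2.81 on the log2 scale (SE 0.31, edgeR adjusted p = 0.0153). In Tuft-2 it was at 10.4 to 25.2 CPM with no step by time, and the change in Tuft-3 was larger by 2.13 (SE 0.33, edgeR adjusted p = 0.00138). Clec4a1, a C-type lectin, was at 16.8 and 13.7 CPM at 2 weeks and 88.9 and 62.5 CPM at 4 weeks, a change of 2.35 on the log2 scale (SE 0.25, edgeR adjusted p = 0.00586), against 1.44 to 4.35 CPM in Tuft-2. A UMI of Clec4a1 was present in 20.0% and 13.8% of Tuft-3 cells at 2 weeks and in 46.9% and 41.8% at 4 weeks, without thinning and at a lower median depth at 4 weeks. The call held without the cells that had a macrophage or lymphocyte UMI, at a change of 2.46. Gm5662, a predicted gene with close copies whose count is therefore uncertain, was at 125 and 111 CPM at 2 weeks and 259 and 268 CPM at 4 weeks, a change of 1.15 on the log2 scale (SE 0.16, edgeR adjusted p = 0.0248). Tm4sf4, a tetraspanin-like protein found in ducts, was at 427 and 392 CPM at 2 weeks and 857 and 1184 CPM at 4 weeks, a change of 1.31 on the log2 scale (SE 0.18, edgeR adjusted p = 0.0248). Without robust estimation neither call held (edgeR adjusted p = 0.113 for Gm5662 and 0.135 for Tm4sf4). In Tuft-2 Tm4sf4 was at 457 and 533 CPM at 2 weeks and 674 and 873 CPM at 4 weeks, and the difference between the subtypes was 0.68 (SE 0.13, edgeR adjusted p = 0.0165).

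Genes that fell were Serpini1, Jaml, Lyz2, Reg2, Smoc2 and Tm4sf5. Serpini1, the protease inhibitor neuroserpin, was at 94.8 and 95.02 CPM at 2 weeks and 25.5 and 26.7 CPM at 4 weeks, a change of -1.87 on the log2 scale (SE 0.18, edgeR adjusted p = 0.00586). Jaml, an adhesion molecule, was at 232 and 305 CPM at 2 weeks and 86.4 and 75.3 CPM at 4 weeks, a change of -1.77 on the log2 scale (SE 0.18, edgeR adjusted p = 0.00586). In Tuft-2 Serpini1 was at 68.4 and 58.9 CPM at 2 weeks and 32.6 and 22.3 CPM at 4 weeks, so it was lower at 4 weeks in both subtypes, while Jaml was at 141 and 89.8 CPM at 2 weeks and 117 and 50.4 CPM at 4 weeks, with an overlap. Smoc2, a secreted matrix protein, was at 52.00 and 45.1 CPM at 2 weeks and 12.4 and 4.52 CPM at 4 weeks in Tuft-3, a change of -2.62 on the log2 scale (SE 0.37, edgeR adjusted p = 0.0392). In 2-week mouse 1, 1 of 35 Tuft-3 cells held 17 of the 34 Smoc2 UMIs (50%). Tm4sf5, a relative of Tm4sf4, was at 61.2 and 73.8 CPM at 2 weeks and 14.3 and 24.8 CPM at 4 weeks, a change of -1.78 on the log2 scale (SE 0.26, edgeR adjusted p = 0.0392). In Tuft-2 Smoc2 was at 5.94 to 8.73 CPM and Tm4sf5 at 13.1 to 39.5 CPM. The change in Tuft-3 minus that in Tuft-2 was -2.91 (SE 0.53, edgeR adjusted p = 0.00901) for Smoc2 and -1.69 (SE 0.29, edgeR adjusted p = 0.00655) for Tm4sf5. The change over time in Tuft-3 of these genes did not pass without TMM scaling (edgeR adjusted p = 0.0506 for both) or without robust estimation (edgeR adjusted p = 0.146 for Smoc2 and 0.174 for Tm4sf5).

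Reg2 and Lyz2 have a known source outside tuft cells. Reg2, a secreted acinar injury protein, was at 47.4 and 63.3 CPM at 2 weeks and 15.5 and 19.2 CPM at 4 weeks in Tuft-3 and at 36.4 and 65.5 CPM at 2 weeks and 9.79 and 14.9 CPM at 4 weeks in Tuft-2, a change in Tuft-3 of -1.72 on the log2 scale (SE 0.25, edgeR adjusted p = 0.0318). The call of Reg2 was absent with DESeq2 (adjusted p = 0.0997), without robust estimation (edgeR adjusted p = 0.135), without 4-week mouse 1 (0.0946) and without 4-week mouse 2 (0.219). Lymphocyte-marked cells had 240.0 CPM of it. Lyz2, the lysozyme of macrophages, was at 52.00 and 65.8 CPM at 2 weeks and 3.73 and 10.2 CPM at 4 weeks, a change of -3.02 on the log2 scale (SE 0.35, edgeR adjusted p = 0.0153), and 1 cell held 46.5% of its UMIs. Without robust estimation its edgeR adjusted p was 0.0677. Over all Tuft-3 cells the 8 macrophage genes summed to 258 and 111 CPM at 2 weeks and 10.6 and 15.1 CPM at 4 weeks. Without the cells that held a macrophage or lymphocyte UMI, Lyz2 changed by -0.56 with an edgeR adjusted p of 0.935.

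The calls depended on single mice. Without 4-week mouse 2, the mouse without Xist, 3 genes passed and only Clec4a1 and Lyz2 of the 11 were among them, with Gng13 at a change of 1.76 and an edgeR adjusted p of 0.206. Without 4-week mouse 1 there were 25 calls, without 2-week mouse 2 there were 98, and without 2-week mouse 1 there were 303. The part of sex in these calls was not tested, and the only mouse without Xist was a 4-week mouse.

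**Figure D5:**
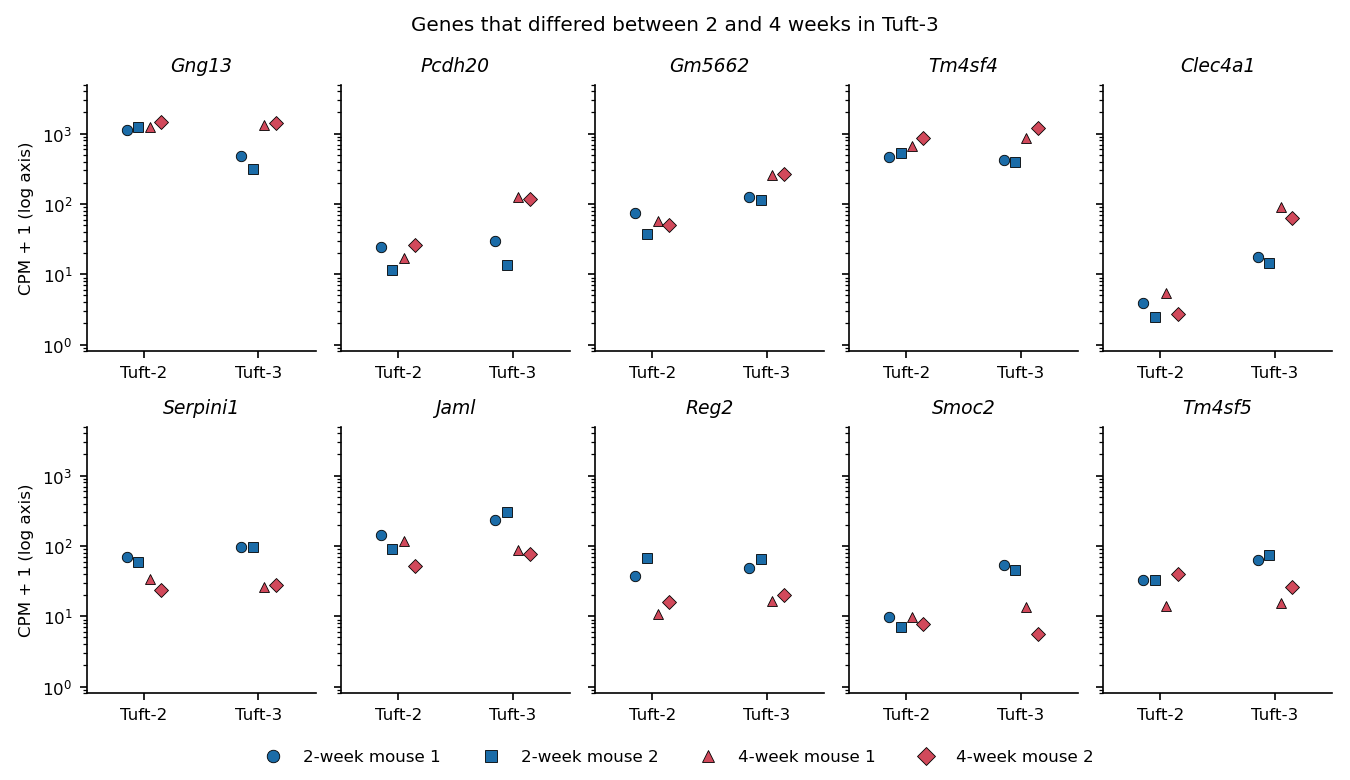
Level of 10 genes in Tuft-2 and Tuft-3 of each mouse, as CPM + 1 on a log axis (blue at 2 weeks, red at 4 weeks). In Tuft-3 the blue and red points are apart in each panel. In Tuft-2 they mix for Gng13, Pcdh20 and Smoc2, and step the same way as in Tuft-3 for Serpini1, Reg2 and Tm4sf4.

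The time effect differed between Tuft-3 and Tuft-2 for 23 of 9787 genes (0.235%) in an interaction fit with the mouse as a block, 10 with the larger value in Tuft-3 and 13 with the smaller, and 692 genes had an unadjusted p under 0.05. DESeq2 called 2, and Gng13 was the 1 of them that edgeR also called. Without 2-week mouse 2, 8 of the 23 were among 37 calls, and Pcdh20, Smoc2, Tm4sf4, Tm4sf5 and Snhg18 were not. Nrgn, named above, was among the 23, at 0.56 (SE 0.12, edgeR adjusted p = 0.0373). It was at 887 and 1187 CPM at 2 weeks and 1577 and 2195 CPM at 4 weeks in Tuft-3, where the change over time did not pass (edgeR adjusted p = 0.287). In Tuft-2 it was at 738 and 846 CPM at 2 weeks and 782 and 1158 CPM at 4 weeks. The call of Nrgn was absent with DESeq2 and without robust estimation. Snhg18, a long noncoding RNA, was at 125 and 90.99 CPM at 2 weeks and 259 and 398 CPM at 4 weeks in Tuft-3 and 82.96 and 84.4 CPM at 2 weeks and 90.3 and 153 CPM at 4 weeks in Tuft-2, a difference of 1.17 (SE 0.18, edgeR adjusted p = 0.00138). In the lists of tuft genes, 1 taste-type gene and 1 transmitter gene passed, and none of the transcription factors, eicosanoid enzymes, receptors, immune-type or brush border genes did (0 of 14, 12, 13, 18 and 22 tested, in that order).

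Within Tuft-3 few genes of the tuft lists passed the test over time. Of 12 taste-type genes tested 1 passed (Gng13), and 0 passed among 14 transcription factors, 12 eicosanoid enzymes, 8 transmitters, 13 receptors, 18 immune-type and 22 brush border genes. Genes with an unadjusted p under 0.05 numbered 3, 3, 1, 4, 0, 0 and 6 in these lists in that order, against 6.79% of all 9648 genes tested. The 13 receptors and 18 immune-type genes lay below that share and the other lists above it, with 4 of 8 transmitters the most. Folr1 was at higher values in both 4-week mice (723 and 937 CPM, against 414 and 428 CPM) with an edgeR adjusted p of 0.0783, and Bglap3 had an adjusted p of 1 in the same test.

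Tuft-3 cells made up 47.3% (95% Clopper-Pearson interval 35.6% to 59.3%) and 29.4% (25.8% to 33.2%) of the tuft cells with a subtype label in the 2-week mice. In the 4-week mice they made up 62.4% (54.9% to 69.5%) and 56.9% (51.0% to 62.7%). Both 4-week shares lay above both 2-week shares, by 21.3 percentage points on average, and by 12.4 points without 2-week mouse 2 and 30.3 points without 2-week mouse 1. The two-sided exact permutation test gave p = 0.333, which is the smallest that 2 against 2 mice allow, so no difference could pass. Among all cells with a deposited type the shares were 1.17%, 5.04%, 4.02% and 4.15%, where the 2-week mice enclosed the 4-week mice (exact permutation p = 1).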

How the data were processed

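Raw UMI counts per gene and cell (32288 features) were deposited by the authors, without normalization, together with cell type and subtype labels. Per the submitters' processing notes, Cell Ranger 4.0.0, Seurat 3.2.3 and mm10 were used; how the subtypes were defined is not given in the sources used here. The tuft and enteroendocrine counts differed by 0 from those in the merged table. The members and gene lists were chosen with earlier results of these data known.

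Counts were summed per mouse over the Tuft-3, Tuft-2 and Tuft-1 cells and scaled here to CPM of all UMIs of the sum. The mouse was the replicate (2 per time point), and each label names a separate animal. Subtypes were compared without a test, as within-mouse log2 differences with 1 CPM added, over genes with a mean of at least 20 CPM in the higher subtype. Time was tested with edgeR 4.0.16 (limma 3.58.1, R 4.3.3; quasi-likelihood, robust, TMM, filterByExpr, Benjamini-Hochberg over all genes tested, threshold 0.05), and the difference of time effects as an interaction with the mouse as a block. DESeq2 1.42.0 was the other tool. Intervals are Clopper-Pearson, 95%, and cover counting error only. On simulated counts with 200 genes changed 4-fold, the time fit recovered 184 with 4 false calls among 9477 genes tested, and the interaction fit recovered 167 with 5 false calls among 9616; genes there shared 1 dispersion.

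Genes named are those of the lists, the 15 with the widest difference from Tuft-2 in each direction and the same sign in 4 mice, the 10 highest against all other deposited types, the time calls of at least 10 CPM without overlap and, chosen after their values were seen, the interaction calls; some of the genes these rules name are not reported here. Untyped cells with at least 3 UMIs of the lymphocyte or macrophage genes served as a background. Leaving out tuft cells with such a UMI (Lyz2 and Cd79b not counted), the list of microvillus tip-link genes, and the split of the interferon and MHC list by class II, were chosen after seeing the data. Python 3.11.15, numpy 2.4.6, pandas 2.3.3, scipy 1.17.1 and matplotlib 3.10.9 were used.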

Additional observations from a re-analysis of the deposited data

Results flagged for a closer look

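For 23 genes the change from 2 to 4 weeks differed between Tuft-3 and Tuft-2 by the interaction test of edgeR. The values below are the change in Tuft-3 minus the change in Tuft-2 on the log2 scale. The change was larger in Tuft-3 for Sst (3.73), Hamp2 (2.92), Pcdh20 (2.13), Gng13 (1.69), Rab3b (1.20), Snhg18 (1.17), Cela2a (0.80), Tmem245 (0.75), Tm4sf4 (0.68) and Nrgn (0.56). It was smaller, or more negative, in Tuft-3 for Smoc2 (-2.91), Hspb1 (-2.30), Galnt12 (-2.28), Ramp1 (-2.24), Ifitm3 (-1.89), Tm4sf5 (-1.69), Cenpv (-1.57), Nrtn (-1.22), Bst2 (-1.16), Crip2 (-0.94), Krt7 (-0.86), Ly6e (-0.82) and S100a10 (-0.76). Adjusted p-values ran from 0.00138 to 0.0373.

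Many of these calls were lost when 1 mouse was left out. Without 2-week mouse 2, 8 of the 23 were still called, and Gng13 and Ifitm3 were the genes called with each of the 4 mice left out. Sst, the somatostatin gene of delta cells, was at 7.65 and 7.52 CPM at 2 weeks and 4.97 and 12.8 CPM at 4 weeks in Tuft-3 and at 10.2 and 53.6 CPM at 2 weeks and 1.09 and 6.30 CPM at 4 weeks in Tuft-2, where 2-week mouse 2 stood apart, and the call was absent without that mouse (adjusted p = 0.81). Hamp2, a hepcidin gene, was at 0 and 4.56 CPM at 2 weeks and 13.1 and 39.9 CPM at 4 weeks in Tuft-3 and 0 to 6.88 CPM in Tuft-2. The call of Hamp2 was absent without 2-week mouse 2 (adjusted p = 1) and without 4-week mouse 2 (adjusted p = 0.781). The interferon-induced genes Ifitm3 and Bst2 were highest in 2-week mouse 1, with Ifitm3 at 314 and 20.1 CPM at 2 weeks and 43.5 and 16.2 CPM at 4 weeks in Tuft-3. Both calls held without that mouse, at -1.35 for Ifitm3 (adjusted p = 0.00105) and -1.08 for Bst2 (adjusted p = 0.00268), and that of Bst2 missed without 4-week mouse 2 (adjusted p = 0.0515). Galnt12, an enzyme that starts O-glycans, was at 32.1 and 42.4 CPM at 2 weeks and 12.4 and 13.9 CPM at 4 weeks in Tuft-3 and 23.3 and 18.2 CPM at 2 weeks and 31.5 and 29.2 CPM at 4 weeks in Tuft-2, so that the order of the time points was opposite in the subtypes without an overlap. Its call was absent without 2-week mouse 2 (-1.62, adjusted p = 0.283). The part of single mice in the other calls is given by the counts without each mouse.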

How the results depend on the processing

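No paired analysis was possible because the labels give no number shared between the time points, each mouse having an identifier of its own; this concerns the time comparison, while subtypes were compared within mice. Genes called over time in Tuft-3 numbered 11, and 187 with no gene filter, 5 without robust estimation, 9 without TMM scaling (Smoc2 and Tm4sf5 not among them), 29 without cells that held a macrophage or lymphocyte UMI (10 of the 11 among them) and 3 to 303 with 1 mouse left out, where the lone mouse of a time point is assumed to vary like the others. DESeq2 gave 14. The difference of time effects gave 23 calls, 2 with DESeq2, 66 with no gene filter and 32 to 110 with 1 mouse left out. The difference in the share of Tuft-3 ran from 12.4 to 30.3 percentage points with 1 mouse left out. Genes higher or lower by 1 or more numbered 154 and 61, and 144 to 180 and 55 to 68 with 1 mouse left out. With cells thinned to 3000 UMIs, where fewer UMIs lie behind each level, they numbered 272 and 127. Of 1026 single differences from Tuft-2 of genes reported here, each under an alternative, 978 moved by less than the spread between mice, and 0 of at least 1 on the log2 scale reversed. Leaving out 1 of 4 mice cannot move a mean by as much as that spread. Those comparisons could thus only count as unmoved, and the 978 is no measure of stability for them. All 20 shares of Tuft-3 cells with a UMI (10 genes, at 5000 UMIs per cell or with no thinning) moved, for example Folr1 from 68.1% to 80.9% and Sct from 40.9% to 58.0% at 5000 UMIs. Such shares rise with the UMIs per cell by construction, so nothing is read from this. Of 229 differences of time effects under an alternative, 64 kept their direction without passing the threshold and 0 reversed. Of 110 time effects under an alternative, 22 kept their direction without passing the threshold and 0 reversed. With 2 mice per time point and one mouse of the 4 lacking Xist, calls over time remain tied to single mice. The 35 Tuft-3 cells of 2-week mouse 1 held 653810 UMIs, the least depth of the 4, and a count of 0 there allows up to 4.59 CPM. Apart from the rise of shares with depth, the cause of these shifts was not tested.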

Other observations

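Of the endocrine genes beyond secretin, Cpe stood above the lymphocyte-marked cells in CPM, and Pyy and ghrelin did not. Those cells make no hormones of this kind. Cpe, carboxypeptidase E, which trims prohormones, was at 242 and 265 CPM in the 2-week mice and 419.6 and 289 CPM in the 4-week mice in Tuft-3, against 87.3 to 223 CPM in Tuft-2 and 25.7 and 10.2 CPM in Tuft-1, and was higher than in Tuft-2 in 4 of 4 mice (1.01 ± 0.63). Lymphocyte-marked cells had a mean of 8.22 CPM. Pyy, peptide YY, was at 4.59 and 409 CPM at 2 weeks and 5.59 and 12.05 CPM at 4 weeks, so that 1 mouse held nearly all of it. Ghrelin (Ghrl) was at 127 and 112 CPM at 2 weeks and 60.9 and 36.1 CPM at 4 weeks in Tuft-3, while in Tuft-2 it was at 3011 and 39.4 CPM at 2 weeks and 3707 and 32.1 CPM at 4 weeks. Lymphocyte-marked cells had means of 924 CPM of Pyy and 216 CPM of Ghrl, above every Tuft-3 value. They were shallower, at a median of 3497 UMIs per cell against 17174 in Tuft-3, which raises the CPM of the same number of UMIs. The hormone genes of the list summed to 565, 3920, 166 and 344 CPM in them in the 4 mice, so means over mice hide a wide spread. Whether Pyy and Ghrl in Tuft-3 lie above that background cannot be told from CPM, and neither is read as expression.

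Among Notch genes, the ligand Jag2 was at 32.7 to 36.1 CPM in Tuft-3 and 16.01 to 24.1 CPM in Tuft-2, and the inhibitory ligand Dll3 at 58.1 and 22.01 CPM at 2 weeks and 26.1 and 5.27 CPM at 4 weeks and 1.46 to 5.44 CPM. Hes6, a target-like factor of the Hes family, was lower in 4 of 4 mice (-0.48 ± 0.25). Klf4, a factor of differentiated epithelium, was at 240.1 and 292 CPM in the 2-week mice and 259 and 307 CPM in the 4-week mice, against 158 to 217 CPM in Tuft-2 and 60.2 and 51.2 CPM in Tuft-1, and the tight junction gene Cldn3 was at 407 and 494 CPM in the 2-week mice and 451 and 514 CPM in the 4-week mice, against 244 to 309.9 CPM and 217 and 84.5 CPM. Stmn1, a microtubule-destabilising protein of growing cells, was at 21.8 to 50.5 CPM in Tuft-3, 46.4 to 75.1 CPM in Tuft-2 and 504 and 589 CPM in Tuft-1. These are levels without a test.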
